A study of Bos grunniens with 18 samples.

Results

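The genes described here are 9 interferon receptors and response genes of the yak ovary, chosen by symbol: the type I interferon receptor chains IFNAR1 and IFNAR2, the transcription factors STAT2 and IRF9, and the interferon-induced genes ISG15, MX1, MX2, RSAD2 and IFI6. Among the 173 genes whose expression was analysed, 135 of them on chromosome 1, 1 of the 9 was found (IFNAR1). In the lists of m6A peaks analysed, 2 of the 9 were found (IFNAR1 and MX1). Under their symbols, the other 7 (IFNAR2, STAT2, IRF9, ISG15, MX2, RSAD2 and IFI6) had neither an expression row nor a listed peak. No value is given under these symbols. A gene without a symbol, ENSBGRG00000000131, whose annotation and position point to IFNAR2, is described below but was not counted. None of the interferon-induced genes named above thus has an expression value here, and the values below say nothing about whether an interferon response was present.

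Type I interferons bind a receptor made of IFNAR1 and IFNAR2, which activates the kinases JAK1 and TYK2. STAT2, once phosphorylated, acts with IRF9 to switch on interferon-stimulated genes such as ISG15, MX1, MX2, RSAD2 and IFI6. In ruminants, interferon tau from the early conceptus signals pregnancy through the same receptor, and interferon-stimulated genes respond to it in the uterus and the corpus luteum.

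Ovaries came from healthy yaks (Bos grunniens) aged 6 years, killed on 1 farm within a single year, in anestrus (YO-A, April), estrus (YO-F, August) and pregnancy (YO-P, December), with 3 poly(A) RNA input libraries and 3 m6A immunoprecipitation libraries per stage. The labels give no treatment beyond the stage, and the tissue was ovary as a whole. Each stage was collected in 1 month, so that stage and season cannot be told apart. The paper states that 3 ovarian samples of each period were sequenced. The labels and methods do not say in so many words that every library of a stage came from its own animal. The p-values therefore measure the spread between these libraries, which may not be a spread between animals.

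YO-F2 was left out of the analyses of the study after its principal component analysis, and the comparisons below use the other 8 input libraries, with the value of YO-F2 given beside them. Between 131 and 138 of the 173 genes were above 0 in each library. Expression was given as FPKM (fragments per kilobase of exon, scaled to the mapped reads of the library), which is per length and can be compared between genes, but holds no read counts. The number of reads behind a value is therefore unknown, and no counting error was computed. The study reports sequencing totals for its samples, which were not used here. Of 58 marker genes of ovarian, immune, stromal and other cell types, 0 were among the 173 genes, including 0 of 16 markers of granulosa, luteal and theca cells and oocytes. The tissue label and the cell makeup of the libraries thus could not be checked by expression. A granulosa cell marker, FOXL2, had a listed m6A peak in pregnancy (fold enrichment 4.53), which gives no expression level. In bulk tissue, fewer cells of a type and less RNA per cell cannot be told apart.

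IFNAR1 (ENSBGRG00000000133), the chain of the type I interferon receptor that carries TYK2, lies on the plus strand of chromosome 1 from 36937136 to 36967325 in the coordinates of the deposited files. It was expressed in every library. In anestrus, IFNAR1 had an FPKM of 16.3 in YO-A1, 24.6 in YO-A2 and 10.6 in YO-A3. In estrus, the FPKM was 7.04 in YO-F1 and 11.4 in YO-F3, and the library left out, YO-F2, had 5.78. In pregnancy, it was 11.5 in YO-P1, 11.0 in YO-P2 and 10.1 in YO-P3. The libraries overlapped between every pair of stages: YO-A3 lay among the pregnancy libraries and below YO-F3, while YO-A1 and YO-A2 were above all others. YO-F1 and YO-F2 were below every library of the other stages.

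IFNAR1 averaged 17.2 ± 7.01 FPKM (SD, n = 3) in anestrus. It averaged 9.22 ± 3.08 FPKM (SD, n = 2) in the estrus libraries and 10.9 ± 0.707 FPKM (SD, n = 3) in those from pregnancy. With YO-F2, the estrus mean was 8.07 ± 2.95 (SD, n = 3). The order of the means was thus anestrus, pregnancy, estrus, and no neighbours in this order differed beyond the spread of their libraries. Anestrus libraries were the most spread and pregnancy libraries the least. Over the 8 libraries IFNAR1 had a mean FPKM of 12.8 and ranked 46 of 173 genes by level. Its coefficient of variation was 42.0%, rank 17 of the 105 genes whose mean FPKM over all 9 libraries reached 1, for which the median was 19.8%.

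**Figure D1:**
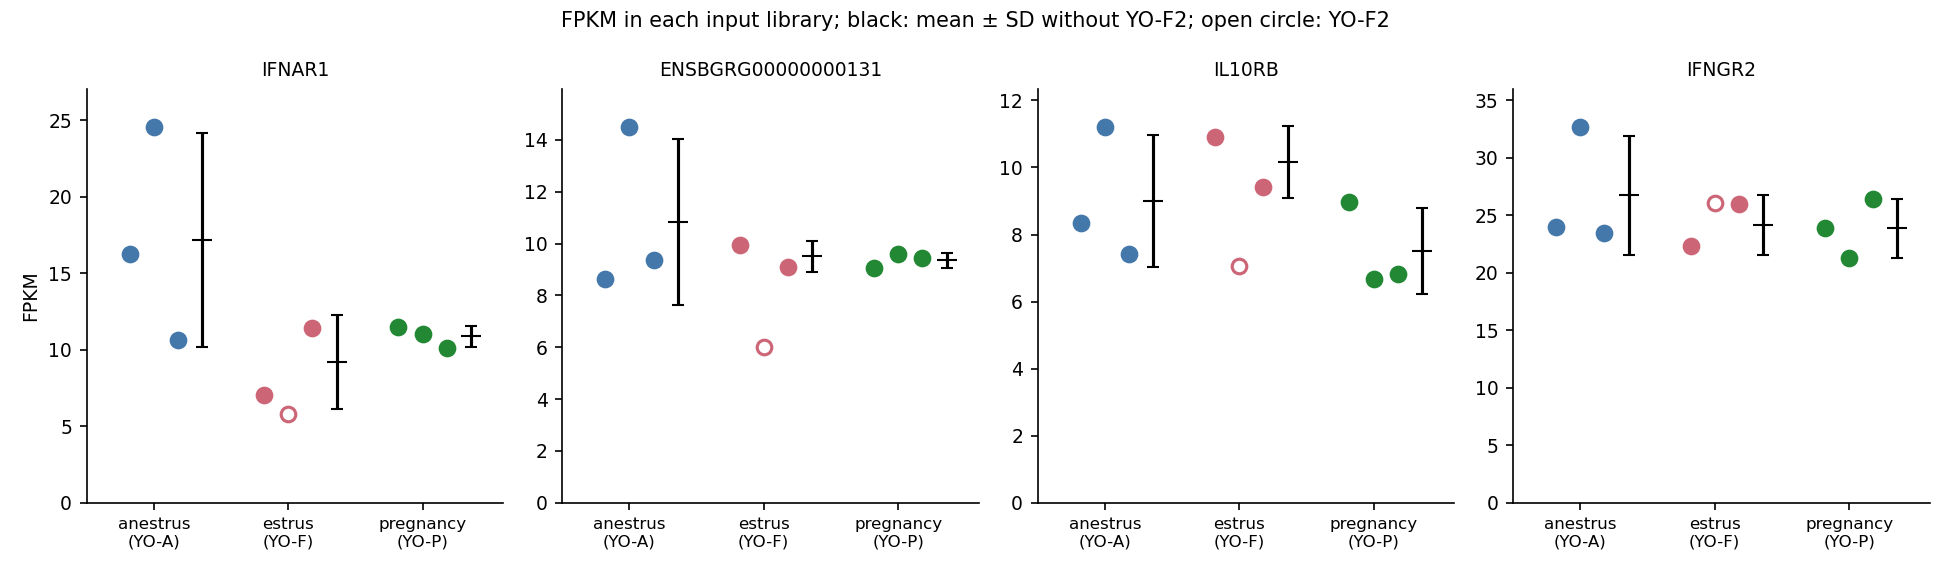
FPKM (vertical axes, each from 0) of IFNAR1 and its 3 neighbouring receptor genes in every input library of anestrus (blue), estrus (red) and pregnancy (green). Black marks give the mean ± SD without YO-F2, which is drawn as an open circle, and YO-A2 is the highest library in all 4 panels.

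YO-FvsA compared the ovary in estrus with the ovary out of the breeding season. As the call standard, genes were called at the fold and p thresholds that the study names, a change of 1 or more on the log2 scale in either direction with p below 0.05. The study does not say whether its p was adjusted, and the unadjusted p was used here, from limma on log2(FPKM + 0.1) over the 130 genes whose mean FPKM reached 0.1. This mean was taken over all 9 libraries, YO-F2 included. In this comparison 2 of 130 genes (1.54%) were called, and IFNAR1 was not. Its level in estrus was 0.555 times that in anestrus, a log2 fold change of -0.85 (SE 0.33, 95% interval -1.60 to -0.10; limma unadjusted p = 0.0313, Benjamini-Hochberg adjusted p = 0.502), rank 7 of 130 genes by p. With YO-F2 included the log2 fold change was -1.06 (limma adjusted p = 0.283), past the call standard. It was also past it, at -1.15, without YO-A3, and at -1.19 without YO-F3, but -0.55 without YO-A2 and -0.50 without YO-F1. The call of IFNAR1 between estrus and anestrus thus turned on single libraries.

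By adjusted p under 0.05, limma called 0 of 130 genes in each of the 3 comparisons, but 5 in YO-FvsA and 1 in YO-FvsP without YO-F3, IFNAR1 not among them. An unadjusted p under 0.05 was reached by 12 genes (9.23%) in YO-FvsA, IFNAR1 among them, by 12 genes (9.23%) in YO-FvsP and by 4 genes (3.08%) in YO-PvsA, without IFNAR1 in YO-FvsP and YO-PvsA. In YO-FvsA the unadjusted limma p of IFNAR1 was 0.05 or more under 7 of 17 alternatives, up to 0.223 without YO-F1. For IFNAR1 alone, the exact two-sided permutation test on log2 values gave p = 0.3 in YO-FvsA, where 0.1 is the smallest p that 2 against 3 libraries allow (adjusted p = 0.857 over the 12 tests of 4 genes and 3 comparisons).

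YO-FvsP compared the estrus and pregnancy ovaries. Here 3 of 130 genes (2.31%) were called, and IFNAR1 was not, with a log2 fold change of -0.27 (SE 0.33, 95% interval -1.03 to 0.48; limma adjusted p = 0.846). Without YO-F1 the value was 0.07 and without YO-F3 -0.62, so that even its sign rested on which estrus library was used. The interval includes lower and higher levels, and these data do not show that estrus and pregnancy had the same level.

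YO-PvsA compared the ovary of pregnant yaks with that of anestrus. Again 3 of 130 genes (2.31%) were called, and IFNAR1 was not. Its log2 fold change was -0.57 (SE 0.30, 95% interval -1.25 to 0.10; limma adjusted p = 0.874), or 0.672 times the anestrus level. YO-A2 and YO-A3 moved this value most: it was -0.27 without YO-A2 and -0.87 without YO-A3 (limma unadjusted p = 0.0102). YO-FvsA and YO-PvsA share the 3 anestrus libraries, so YO-A2 and YO-A3 enter both values.

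**Figure D2:**
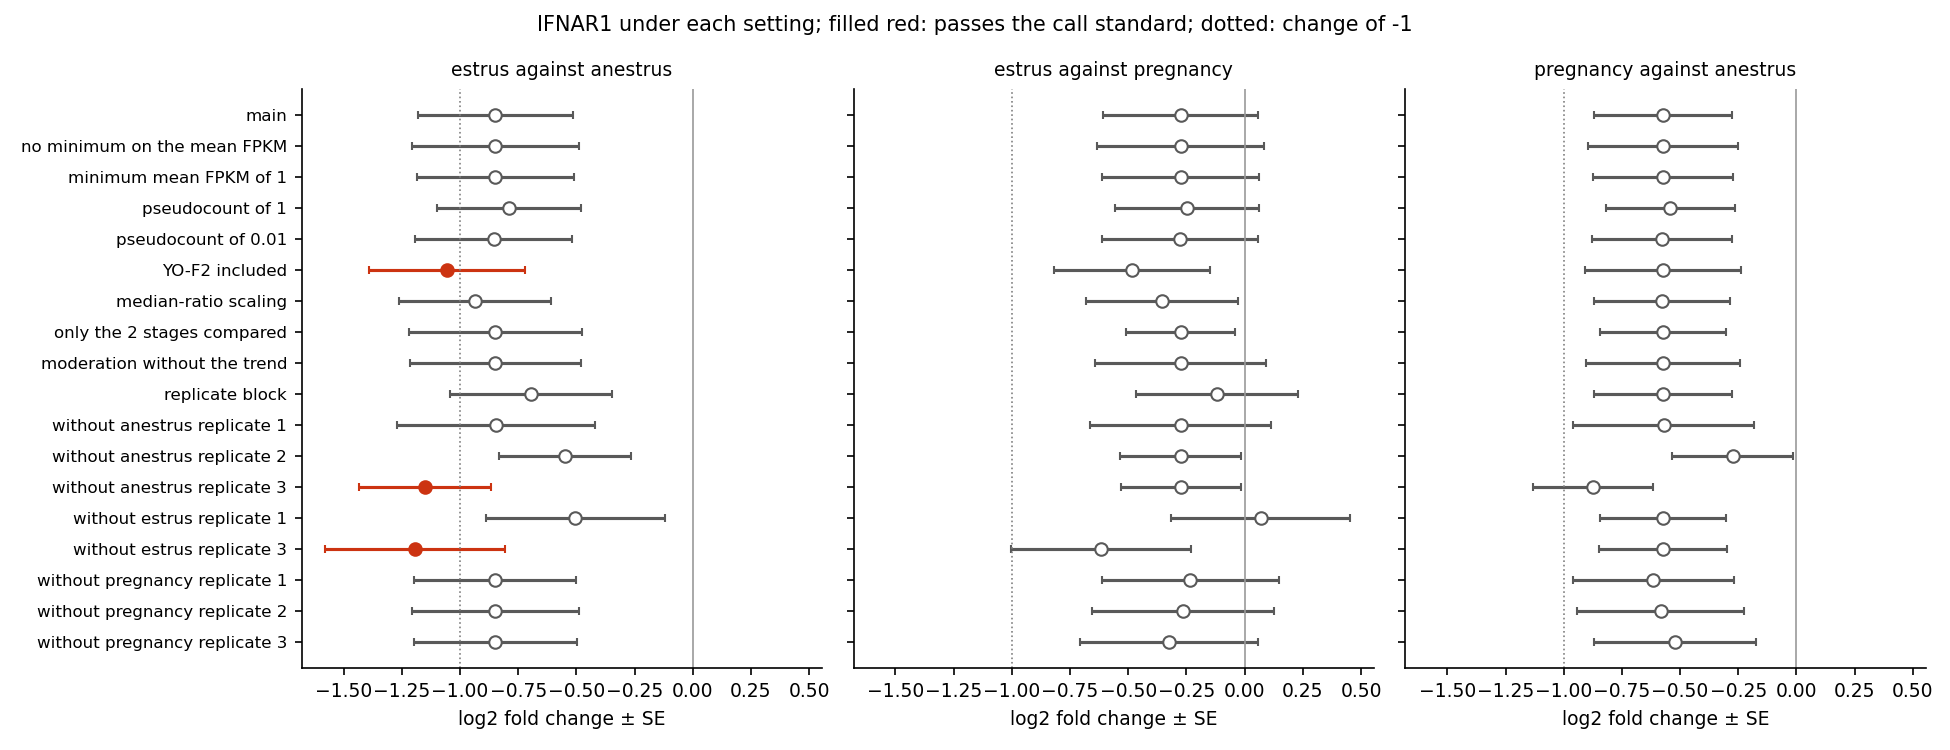
Log2 fold change of IFNAR1 (horizontal axes, bars ± SE) in the 3 comparisons under 18 settings, from the fit described in the text (main) to fits with another filter, pseudocount, scaling or block, or without 1 library. Filled red points, 3 in estrus against anestrus and none in the other panels, passed the call standard, and the dotted line marks a change of -1.

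Of 98 further genes of the interferon pathway listed beside the 9 (other receptors and ligands, JAK-STAT signalling, interferon regulatory factors, nucleic acid sensors, interferon-induced effectors and ISG15 conjugation), 2 were among the genes analysed, IFNGR2 and IL10RB. They flank IFNAR1 on chromosome 1. IL10RB (ENSBGRG00000000132, 36829072 to 36863430), a receptor chain shared by interleukin 10 and interferon lambda, lies before it, and IFNGR2 (ENSBGRG00000000134, 37032802 to 37065571), the signalling chain of the interferon gamma receptor, lies after it. A gene without a symbol, ENSBGRG00000000131 (36786295 to 36826818), precedes IL10RB. In the expression table it carries the KEGG orthology entry K05131, and all 15 of its KEGG pathways are among the 16 of IFNAR1. In the RefSeq gene order of the yak assembly Bosgru_T2T1.0, which is not the build of the files, IFNAR2 is the protein-coding gene just before IL10RB. The orthology entry and the place before IL10RB thus point to IFNAR2. Since this identifier has no symbol, ENSBGRG00000000131 was not counted as IFNAR2. It was added after its values were seen.

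IFNGR2 had an FPKM of 24.0, 32.7 and 23.5 in the anestrus libraries YO-A1 to YO-A3, 22.3 and 26.0 in YO-F1 and YO-F3, and 23.8, 21.3 and 26.4 in YO-P1 to YO-P3. YO-F2, at 26.0, lay within the range of the other libraries, and the stages overlapped in every pair. Its log2 fold change was -0.13 for YO-FvsA, 0.02 for YO-FvsP and -0.15 for YO-PvsA, with limma adjusted p values from 0.863 to 0.982. In YO-FvsP its 95% interval ran from -0.39 to 0.43.

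IL10RB had an FPKM of 8.35, 11.2 and 7.42 in anestrus, 10.9 and 9.41 in YO-F1 and YO-F3, and 8.97, 6.69 and 6.83 in pregnancy. Both estrus libraries were above all 3 pregnancy libraries, but YO-F2, at 7.05, was not. Groups without overlap were found for 35 of 130 genes (26.9%) in YO-FvsP. The log2 fold change of IL10RB there was 0.44 (SE 0.23, 95% interval -0.08 to 0.97; limma adjusted p = 0.535), against 0.19 in YO-FvsA and -0.25 in YO-PvsA. With YO-F2 included it was 0.27 in YO-FvsP and 0.019 in YO-FvsA.

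ENSBGRG00000000131 had an FPKM of 8.64, 14.5 and 9.37 in anestrus, 9.93 and 9.09 in YO-F1 and YO-F3, and 9.04, 9.58 and 9.43 in pregnancy. YO-F2, at 6.02, was below all other libraries, as it was for IFNAR1. The log2 fold changes were -0.15 (YO-FvsA), 0.02 (YO-FvsP) and -0.17 (YO-PvsA), with limma adjusted p values from 0.894 to 0.982. None of IFNGR2, IL10RB and ENSBGRG00000000131 was called in any of the 3 comparisons, with the settings used here or under the 17 alternatives.

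**Figure D3:**
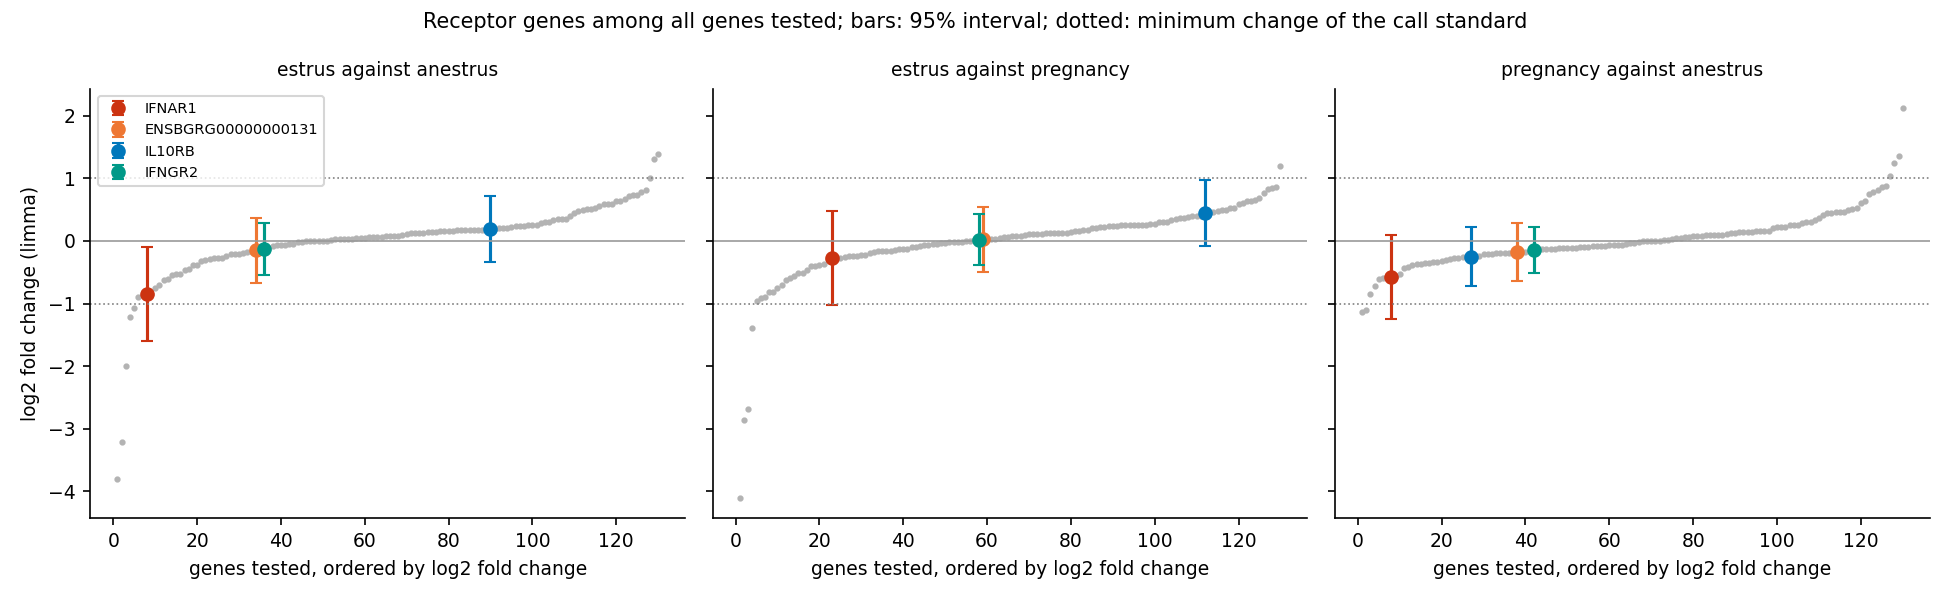
Log2 fold change (vertical axis) of the 130 genes tested, in order of their value, in estrus against anestrus, estrus against pregnancy and pregnancy against anestrus. Coloured points with 95% intervals are IFNAR1 and its 3 neighbours, dotted lines mark changes of -1 and 1, and IFNAR1 is the lowest of the 4 in each panel, at -0.85, -0.27 and -0.57.

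By level, IFNGR2 had the highest mean FPKM over the 8 libraries of these 4 genes, 25.0, followed by IFNAR1 at 12.8, ENSBGRG00000000131 at 9.95 and IL10RB at 8.73. IFNAR1 also varied most: its highest library, YO-A2, was 3.49 times its lowest among the 8, against 1.54 times for IFNGR2, 1.68 times for IL10RB and 1.68 times for ENSBGRG00000000131. YO-A2 was the highest library for all 4 genes. A ratio within a library removes what is common to both genes there, so IFNAR1 was also set against each neighbour, as the difference of their log2(FPKM + 0.1).

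As a ratio of FPKM, IFNAR1 over IL10RB was 1.95, 2.19 and 1.43 in anestrus, 0.645 and 1.21 in YO-F1 and YO-F3, and 1.28, 1.65 and 1.48 in pregnancy, with 0.819 in YO-F2. In this ratio every estrus library, YO-F2 included, was below every library of the other stages. Both genes enter it, and IFNAR1 alone overlapped in every pair of stages. Over the 8 libraries, the log2 fold change in YO-FvsP was 0.44 for IL10RB and -0.27 for IFNAR1. In YO-FvsA it was 0.19 for IL10RB and -0.85 for IFNAR1. The log2 ratio was lower by 1.04 in estrus than in anestrus and by 0.72 than in pregnancy, each at p = 0.1 by the exact two-sided permutation test, the smallest p the design allows (adjusted p = 0.337 over 9 tests). IFNAR1 over IFNGR2 was 0.679, 0.752 and 0.453 in anestrus and 0.315 and 0.438 in YO-F1 and YO-F3, with 0.222 in YO-F2, again without overlap (log2 difference -0.72, exact permutation p = 0.2). It overlapped between estrus and pregnancy, where it was 0.482, 0.518 and 0.383. IFNAR1 over ENSBGRG00000000131 overlapped in all 3 pairs of stages. Over the 8 libraries, groups of single genes without overlap made up 19.2% of the 130 genes in YO-FvsA and 26.9% in YO-FvsP. The share of ratios without overlap was not computed. No ratio could have reached an adjusted p of 0.05, since 0.1 is the smallest p the exact permutation test allows here.

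**Figure D4:**
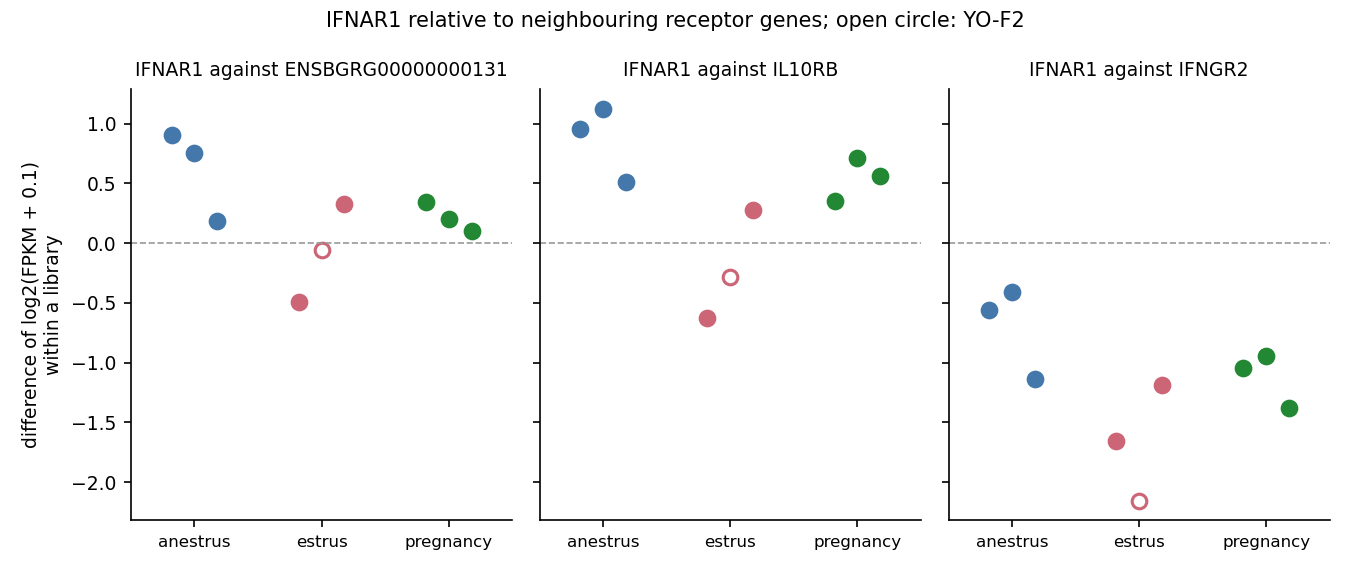
Difference of log2(FPKM + 0.1) between IFNAR1 and each neighbouring receptor gene (vertical axis) in every library, by stage, with YO-F2 as an open circle. Against IL10RB all estrus points lie below the anestrus and pregnancy points, while against ENSBGRG00000000131 the stages overlap.

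Since none of the interferon-induced genes was among the rows, likeness was computed to IFNAR1 itself, a choice made after the data were seen. Over the 8 libraries and 81 genes with a symbol and a mean FPKM of 1 or more, the log2 values most like those of IFNAR1 were of ITSN1, an endocytic scaffold (Pearson r = 0.873), PLCL2, a catalytically inactive phospholipase C-like protein (0.769), CHST2, a carbohydrate sulfotransferase (0.766), IFNGR2 (0.739) and PCOLCE2, an enhancer of procollagen processing (0.649). IL10RB ranked 16, at 0.249. The 81 genes were chosen by their mean over all 9 libraries. These are descriptions over libraries that share their stages and their scaling. YO-A2 was the highest library for IFNAR1, IFNGR2 and IL10RB, which was not examined for the other genes named. With YO-F2 added, IFNGR2 was at 0.523 and ITSN1 at 0.841.

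The m6A peak lists give regions where immunoprecipitated RNA was enriched over input, 1 list per stage, so that replicates cannot be compared and no test between stages was made. m6A is the methylation of adenosine within mRNA, placed largely near stop codons and in 3′ UTRs, and read by proteins that affect the stability and translation of the transcript. The lists analysed held 9 complete peaks for anestrus, 18 for estrus and 282 for pregnancy. The anestrus list ended at position 22449705 of chromosome 1, before IFNAR1, and the estrus list within IFNAR1, so a gene missing from them beyond these points was not analysed there. The pregnancy list ran in order of position to 172200451, past MX1, and then went on from a lower position of chromosome 1. It held no peak of MX2, which neighbours MX1 in the RefSeq gene order, but where MX2 lies in the build of the files was not determined here. A stage without a listed peak below is therefore not a stage without methylation.

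IFNAR1 had peaks in estrus and in pregnancy. In pregnancy 1 peak, from 36967089 to 36967325, covered the last 237 bases of the gene, in exon 11 of 11. Its fold enrichment was 4.14 (log10 FDR -92.5), rank 164 of 282 by fold and 55 by p, against a median fold enrichment of 4.43 over all pregnancy peaks. In estrus, a peak from 36964630 to 36965772 was annotated to exon 10 of 11 and was made of blocks of 58 and 61 bases. Its fold enrichment was 2.96, with a log10 FDR of -0.897, which misses an FDR of 0.05, and it ranked last of the 18 estrus peaks by p. A further estrus peak, from 36965831 to the end of the gene at 36967325, was analysed by position only, since its enrichment was not among the values analysed. It contained all 237 bases of the pregnancy peak, which made up 15.9% of its own span.

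MX1 (ENSBGRG00000014066, 154390903 to 154484561 on chromosome 1), a dynamin-like GTPase with antiviral activity, had 3 peaks in pregnancy, all toward its 3′ end. The peak from 154478904 to 154483482, annotated to exon 15 of 16 and made of blocks of 107 and 74 bases, had a fold enrichment of 2.57 (log10 FDR -19.2). The peak from 154483661 to 154483961 in the 3′ UTR had 2.24 (log10 FDR -32.9). The peak from 154484231 to the end of the gene, also in the 3′ UTR, had the highest fold enrichment of the 3, 7.56, and the log10 FDR nearest to 0 (-0.771), missing an FDR of 0.05. At least 3 peaks were listed for 24 of the 176 genes with a pregnancy peak (13.6%). MX1 was not among the expression rows, so these peaks could not be set beside its level, and the anestrus and estrus lists analysed did not reach it.

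Around IFNAR1, IFNGR2 had 1 pregnancy peak, from 37065452 to 37065571, at the end of its last exon, with a fold enrichment of 2.96 (log10 FDR -104). ENSBGRG00000000131 had 2 peaks in estrus, with fold enrichments of 12.0 and 3.95, and 2 in pregnancy, with 8.83 and 2.70, all in its 3′ UTR. In the stronger pair the pregnancy peak, of 780 bases, lay wholly within the estrus peak. Peaks in a 3′ UTR or a last exon made up 45.4% of the 282 pregnancy peaks, and 44 peaks (15.6%) reached the end of their gene, as did those of IFNAR1 and IFNGR2 and 1 of the 3 of MX1.

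**Figure D5:**
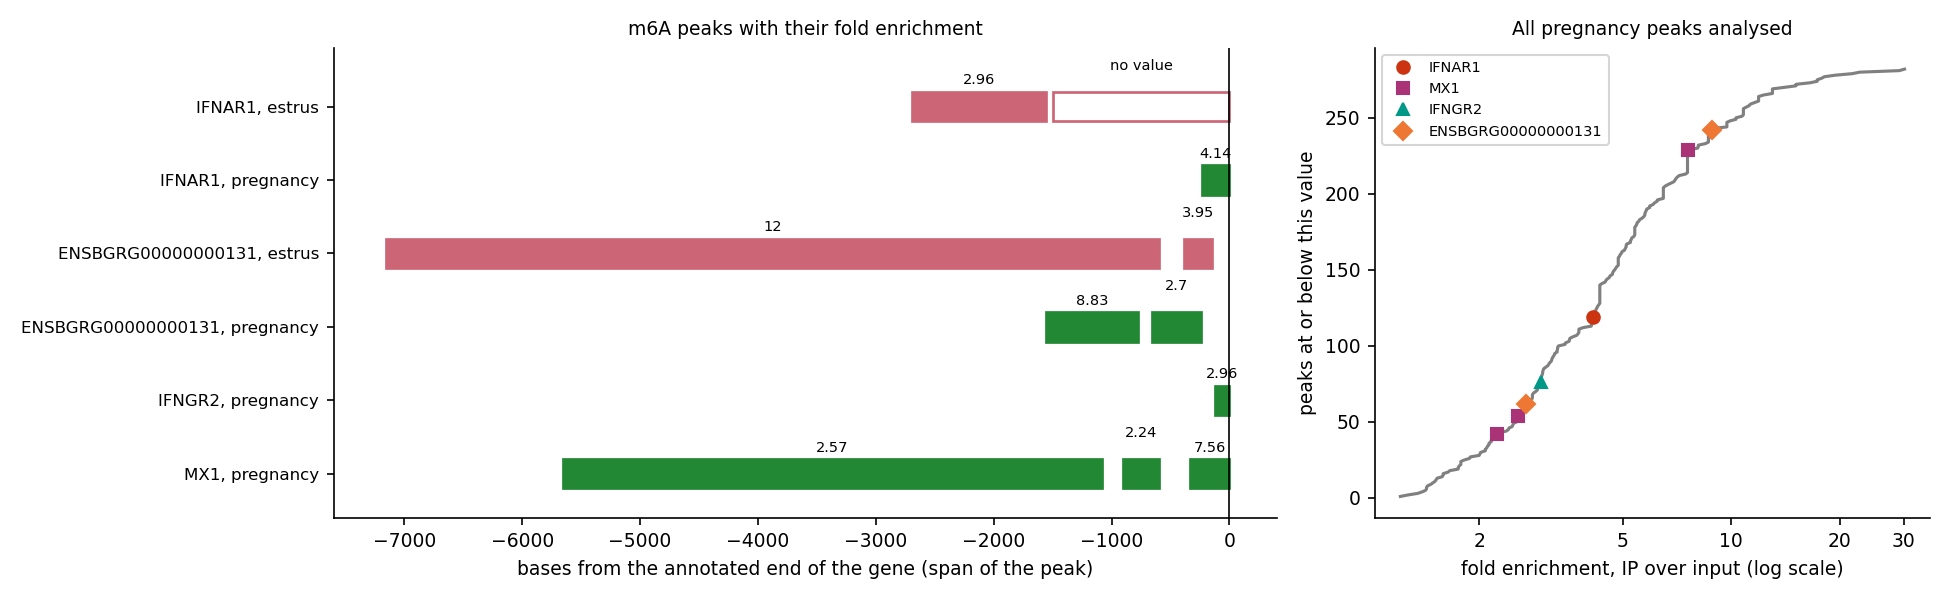
Left, m6A peaks of IFNAR1, MX1 and 2 neighbours as their span in bases from the annotated gene end, in estrus (red) and pregnancy (green), with the fold enrichment above each; spans include introns between blocks, and the open bar has no enrichment value. Right, cumulative number of the 282 pregnancy peaks by fold enrichment (log scale), where IFNAR1 at 4.14 lies near the median and the peaks of MX1 run from 2.24 to 7.56. The MX1 peak at 7.56 missed an FDR of 0.05.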

How the data were processed

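RNA of 9 input libraries was aligned by the authors with HISAT2 (2.0.4 in the submitters' processing notes) to the Bos grunniens genome and quantified with StringTie, and the expression table was deposited as FPKM, with no further scaling stated. The authors deposited 1 peak list per stage with the fold enrichment, a ratio of immunoprecipitation over input, and, as score columns, log10 values of the p-value and FDR; ChIPseeker 1.18.0 is in the submitters' notes, and the peak caller is not given in the sources used here. The tables of peak differences between stages hold the authors' own comparisons and were not used. Each file was analysed only in its opening part.

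The members and gene lists were chosen with earlier results of these data known. All members, and every listed pathway gene found among the rows, were named. Comparisons of stages used limma 3.58.1 under R 4.3.3 (empirical Bayes with a trend) on log2(FPKM + 0.1), over 130 genes whose mean FPKM reached 0.1, in 1 fit of 8 libraries. The filter on the mean FPKM used all 9 libraries, YO-F2 included. The study's own test works on counts, which FPKM does not hold. Single values were tested by exact two-sided permutation of the difference of means in Python 3.11.15 with scipy 1.17.1. Alternatives were 17 settings of the filter, pseudocount, scaling, moderation, libraries and block, and an FDR of 0.05 for peaks.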

Additional observations from a re-analysis of the deposited data

How the results depend on the processing

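Of 17 alternatives per comparison, 0 changed the number of the 9 genes called (0 of the 1 measured) in YO-FvsP or YO-PvsA, or of the wider interferon list in any comparison. In YO-FvsA the count was 1 with YO-F2 included and ranged from 0 to 1 when 1 library was left out (1 without YO-A3 or YO-F3); IFNAR1 then had log2 fold changes of -1.06, -1.15 and -1.19. When 1 library was left out, the log2 fold change of IFNAR1 ran from -1.19 to -0.50 in YO-FvsA, from -0.62 to 0.069 in YO-FvsP and from -0.87 to -0.27 in YO-PvsA. That of IFNGR2 ran from -0.24 to 0.023, from -0.088 to 0.13 and from -0.24 to 0.0020, and that of ENSBGRG00000000131 from -0.29 to 0.078, from -0.040 to 0.086 and from -0.32 to 0.054, and that of IL10RB from 0.066 to 0.36, from 0.34 to 0.58 (limma unadjusted p = 0.0434 and adjusted p = 0.434 without YO-P1) and from -0.39 to -0.083, for the 3 comparisons in the same order. In YO-FvsP median-ratio scaling gave -0.061 for IFNGR2 and -0.058 for ENSBGRG00000000131, and including YO-F2 gave -0.19 for ENSBGRG00000000131, where the sign turned in values near 0; the cause was not tested. At an FDR of 0.05, the number of the 9 genes with an estrus peak fell from 1 to 0, since IFNAR1 had no complete peak under it, and it was 2 in pregnancy in both cases.

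Yaks were killed at collection, so replicate numbers cannot mark animals shared between stages. Same-numbered libraries correlated between -0.17 and 0.39 in their deviations from the stage means, and differently numbered ones between -0.39 and 0.48. With 2 or 3 libraries per stage, deviations within a stage depend on each other. These values and the block below measure no animal pairing. With the replicate number as a block, IFNAR1 had log2 fold changes of -0.69 (YO-FvsA, limma unadjusted p = 0.0866), -0.12 (YO-FvsP) and -0.57 (YO-PvsA), and 0 of the 9 genes were called in each comparison; over all 130 genes the block moved the calls from 2 to 1 in YO-FvsA, from 3 to 4 in YO-FvsP and from 3 to 4 in YO-PvsA. Depth could not be assessed from FPKM. With 2 or 3 libraries per stage, the 95% intervals of IFNAR1 in YO-FvsP and YO-PvsA include both 0 and a change of -1. Over all genes tested, the called number ran from 1 to 9 in YO-FvsA (2 as reported; 9 without YO-F3), from 1 to 9 in YO-FvsP (3 as reported; 9 without YO-F3) and from 1 to 4 in YO-PvsA (3 as reported; 1 without YO-A3), and with YO-F2 included it was 5, 5 and 3. By adjusted p under 0.05, limma called 0 to 5 genes in YO-FvsA (above 0 under 7 of 17 alternatives), 0 to 1 in YO-FvsP (above 0 under 4 of 17) and 0 in YO-PvsA under all 17.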
